A study of Mus musculus with 2 samples.

Results

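Regions called in an Otp CUT&RUN library were examined where they lay in the interior of genes shorter than 200 kb, away from the ends of any gene. CUT&RUN tethers a nuclease to an antibody on chromatin and sequences the DNA that is cut loose. The tissue was the paraventricular nucleus (PVN) of the hypothalamus of adult wild-type mice. One library was made with an antibody against Otp, and 1 with IgG, a control antibody without a target. Both libraries came from animals of the same genotype with no treatment named. The labels give neurons as the cell type, and their protocol describes nuclei purified through a sucrose cushion without naming a sort. With 1 library per antibody, nothing below has a replicate check, and no test between libraries was possible.

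A region was taken when it was on chromosomes 1 to 19, overlapped no IgG region and had its summit over 1 kb from both ends of every annotated gene, coding or not. The summit also had to lie inside a protein-coding gene, with all such genes under 200 kb. This held for 1698 of the 11379 Otp regions, or 15.3% of the 11085 on these chromosomes (95% exact binomial interval 14.7 to 16.0%). The IgG list held 291 regions in all. The members were thus chosen from the Otp peak calls themselves, so their strengths are described and not tested. Just inside the distance bound were regions in Cdh16 and Wdcp, 1001 and 1004 bp from a gene end, with fold enrichments of 4.91 and 5.85. Just outside it were regions in Ttr and Topors, 999 and 997 bp from an end, with 8.81 and 6.53. At the length bound, Sergef (199.7 kb) and Morc1 (199.7 kb) were inside, with 7.03 and 6.61. Tspear (200.9 kb) and Ppp1r12b (201.3 kb) were outside, with 8.36 and 6.34.

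Otp (Orthopedia) is a homeodomain transcription factor that PVN neuroendocrine neurons need for their development, and homeodomains of its class recognise a TAAT core, often within TAATTA. The interior of a gene holds introns and exons, and introns often carry enhancers. Many genes also have more than one promoter, so a start of transcription can lie deep within the span that an annotation gives to the gene. Annotated gene spans cover the longest of all transcript models, including predicted ones.

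A sizeable share of the interior regions lay at such internal starts. Start windows were taken from RefSeq on GRCm38.p6, which is the assembly behind mm10. Each covers 300 bases, from 250 before to 50 after a start. An internal start is one that lies over 1 kb from every gene end and inside a gene under 200 kb. The table has entries for the chromosomes of 1640 members, and 329 members had their summit inside the window of an internal start of their host gene. Of these windows, 8 are shown because they carry the sequence around the summit. Capitals mark matches, on either strand, to the letters GGGCGG (the GC box of SP and KLF factors), CCAAT (the NF-Y box), CCGGAAG (ETS factors), TGACGTCA (the cAMP response element), AAGATGGC (YY1), CACGTG (the E-box) and TAATTA, and to the palindrome of NRF1, which none of the 8 holds. The first 3 had the highest −log10 q among such windows. Rufy3 had the highest with none of these letters, Arnt2, Per1 and Scn2a are members of the gene lists below, and Btbd3 is one of the few with TAATTA.
Hnrnpl (chr7:28810640-28810939, forward strand): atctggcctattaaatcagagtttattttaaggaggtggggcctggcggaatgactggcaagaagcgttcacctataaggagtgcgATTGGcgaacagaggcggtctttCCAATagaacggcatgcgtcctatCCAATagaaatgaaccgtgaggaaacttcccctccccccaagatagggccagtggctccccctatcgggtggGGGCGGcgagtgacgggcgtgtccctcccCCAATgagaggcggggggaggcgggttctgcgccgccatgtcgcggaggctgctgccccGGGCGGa
Fam214b (chr4:43040252-43040551, reverse strand): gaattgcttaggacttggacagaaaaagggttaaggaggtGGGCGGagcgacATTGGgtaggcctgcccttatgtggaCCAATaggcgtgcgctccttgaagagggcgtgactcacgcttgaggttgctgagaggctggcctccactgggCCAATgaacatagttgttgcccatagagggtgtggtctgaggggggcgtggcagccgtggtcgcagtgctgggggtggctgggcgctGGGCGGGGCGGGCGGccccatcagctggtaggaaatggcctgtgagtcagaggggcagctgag
Ercc6l2 (chr13:63814990-63815289, forward strand): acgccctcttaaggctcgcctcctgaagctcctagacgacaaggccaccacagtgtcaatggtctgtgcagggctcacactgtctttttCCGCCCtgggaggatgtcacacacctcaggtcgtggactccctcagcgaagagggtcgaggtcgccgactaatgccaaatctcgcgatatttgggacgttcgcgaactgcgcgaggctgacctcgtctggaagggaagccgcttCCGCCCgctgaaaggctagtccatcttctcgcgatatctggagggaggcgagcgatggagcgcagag
Rufy3 (chr5:88583263-88583562, forward strand): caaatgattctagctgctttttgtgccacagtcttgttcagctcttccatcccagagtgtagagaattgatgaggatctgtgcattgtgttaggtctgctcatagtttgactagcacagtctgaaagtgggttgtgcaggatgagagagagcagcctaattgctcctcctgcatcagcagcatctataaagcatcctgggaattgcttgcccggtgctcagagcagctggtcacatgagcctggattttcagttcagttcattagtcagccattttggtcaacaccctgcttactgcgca
Arnt2 (chr7:84409989-84410288, reverse strand): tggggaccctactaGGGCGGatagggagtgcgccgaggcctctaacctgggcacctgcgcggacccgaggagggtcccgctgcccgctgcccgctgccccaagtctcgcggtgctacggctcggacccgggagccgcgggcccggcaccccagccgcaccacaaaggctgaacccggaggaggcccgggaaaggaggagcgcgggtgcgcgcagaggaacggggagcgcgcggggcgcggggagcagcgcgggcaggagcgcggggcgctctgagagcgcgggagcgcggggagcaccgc
Per1 (chr11:69098699-69098998, forward strand): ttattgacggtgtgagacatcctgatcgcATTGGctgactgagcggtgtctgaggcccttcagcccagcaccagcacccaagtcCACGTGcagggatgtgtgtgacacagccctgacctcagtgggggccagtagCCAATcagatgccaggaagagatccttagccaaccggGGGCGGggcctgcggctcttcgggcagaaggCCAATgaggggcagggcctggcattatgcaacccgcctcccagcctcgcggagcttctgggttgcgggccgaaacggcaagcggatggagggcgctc
Scn2a (chr2:65668436-65668735, forward strand): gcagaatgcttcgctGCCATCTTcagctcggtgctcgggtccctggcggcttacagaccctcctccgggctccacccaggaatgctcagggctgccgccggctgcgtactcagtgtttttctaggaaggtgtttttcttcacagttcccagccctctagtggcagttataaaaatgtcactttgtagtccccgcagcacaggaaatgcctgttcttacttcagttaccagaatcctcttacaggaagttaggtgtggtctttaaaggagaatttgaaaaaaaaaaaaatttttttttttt
Btbd3 (chr2:138278243-138278542, forward strand): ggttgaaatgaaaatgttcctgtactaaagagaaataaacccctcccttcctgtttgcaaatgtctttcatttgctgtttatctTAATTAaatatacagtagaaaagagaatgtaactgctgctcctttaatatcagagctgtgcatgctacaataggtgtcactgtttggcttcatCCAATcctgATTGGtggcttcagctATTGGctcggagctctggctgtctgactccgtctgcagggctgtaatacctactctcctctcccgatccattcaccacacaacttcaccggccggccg
Hnrnpl encodes a splicing factor. Its window had 4 CCAAT boxes and 2 GC boxes, with the summit at base 92 of 300 and 54 tags there (95% Poisson interval 40.6 to 70.5). Tags are the reads or fragments piled up at the summit, worked out here from the deposited fold enrichment and −log10 p. Positions below are relative to the start named, negative where upstream. The summit at Fam214b lay at base 124 with 45 tags, and that at Ercc6l2, a DNA repair helicase, at base 286 with 36 tags. Rufy3, which takes part in axon growth, had 34 tags at base 220 of a window with 2 CpG dinucleotides. Arnt2, the partner protein of Sim1 in PVN development, had 11 tags at base 250, next to the start itself. Per1, a core clock repressor, had 26 tags at base 99. Scn2a, a neuronal sodium channel, had 16 tags at base 149. At Btbd3, which directs dendrites, the TAATTA began at base 85 and the summit lay at base 169, with 14 tags.

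The strength of the interior regions was first set beside that of other Otp regions. Fold enrichment is the authors' value at the summit, over the background their peak caller estimated. Its median was 6.46 (interquartile range 5.48 to 7.84) for the 1698 interior regions. It was 6.37 (5.49 to 7.59) for the 928 regions in the interior of genes of 200 kb or more, and 7.45 (6.02 to 9.66) for the 5883 at gene ends. The number of tags at the summit could be worked out for 1665 members, with a median of 12 (9 to 16) and a range of 6 to 72. The median was 11 tags in the long genes and 15 at gene ends. Members made up 19.9% of Otp regions with a −log10 q from 3 to 5, 12.3% from 10 to 20 and 7.93% from 20 to 50. At 50 or more they were 7 of 214 regions (3.27%, 1.33 to 6.62%). The interiors were thus most frequent among the weaker calls.

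The IgG library limits how far these tags can be read as signal of the Otp antibody. The Otp library had a genome-wide background of 0.512 tags and the IgG library one of 0.0873, which differ by a factor of 5.86. The lowest number was 4 tags among the 262 of 291 IgG regions for which it could be worked out. Scaled by that ratio, 142 of 1665 members (8.53%, 7.23 to 9.97%) would have reached 4 tags in the IgG library. Scaled instead by the median ratio of IgG to Otp tags over 226 overlapping pairs of regions (0.305), 604 would have (36.3%, 34.0 to 38.6%). These pairs exist only where an IgG region was called, and members overlap none. The ratio, and so the count of 604, can be too high for members. For the remaining members, a difference from IgG was not detectable at this depth. The bound of 4 tags is the lowest of any IgG region, and the scaling leaves out the local background at each member. Reaching 4 tags thus does not show that a member would have been called with IgG, so both counts can be too high. Total reads per library are unknown.

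**Figure D1:**
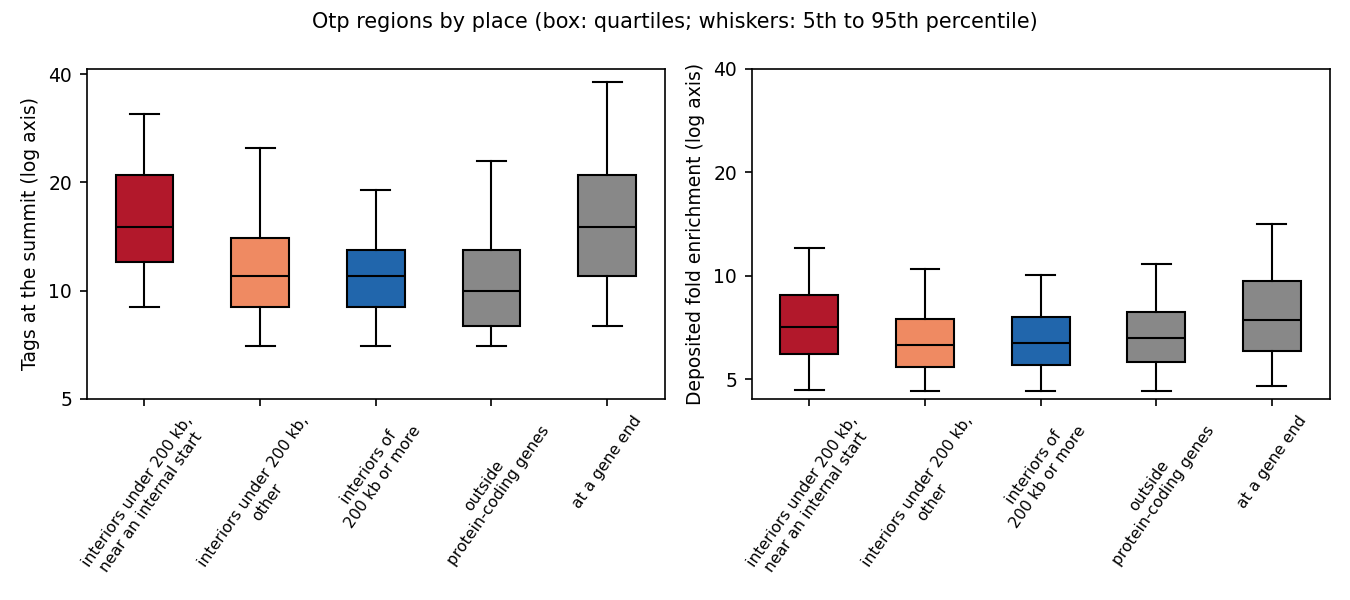
Tags at the summit (left) and deposited fold enrichment (right), both on log axes, for Otp regions by place. Boxes give quartiles and whiskers the 5th and 95th percentiles. Interior regions near an internal start had a median of 15 tags, like regions at gene ends (15), and the other interior regions 11 tags, like those of long genes (11).

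The interior regions were dense at internal starts. Of 1640 members on chromosomes with start entries, 435 (26.5%, 24.4 to 28.7%) had their summit within 1 kb of an internal start, and 244 (14.9%) within 100 bp. For 432 of the 435 the start belonged to the host gene itself. The stretches within 1 kb of an internal start made up 0.996% of the interior base pairs. The density of regions was 84.9 per Mb there (95% Poisson interval 77.1 to 93.3), against 2.37 per Mb (2.24 to 2.51) in the rest of the interiors. A further 13 members lay within 1 kb of a listed start that was itself within 1 kb of a gene end. Another 285 members lay in host genes for which no start entry was used, and these could not be near one of their own. Among the 1355 members in genes with an entry it was 32.0% (29.5 to 34.6%). In genes of 200 kb or more, 44 of 885 interior regions (4.97%, 3.64 to 6.62%) lay within 1 kb of an internal start. Per Mb of such stretches the long genes had 47.5 regions (34.5 to 63.7), again below the shorter genes.

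**Figure D2:**
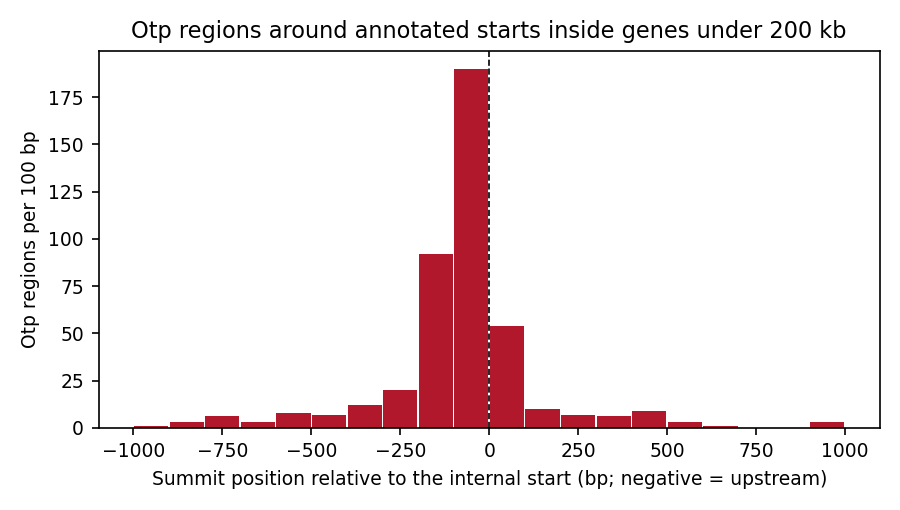
Number of Otp regions per 100 bp (vertical axis) by the position of their summit relative to the nearest internal start (horizontal axis, bp, negative values upstream), for the 435 regions within 1 kb. The tallest bar, with 190 regions, covers the 100 bp just upstream of the start.

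Most of these summits lay just upstream. Of the 435, 342 (78.6%, 74.5 to 82.4%) were upstream of the start, with a median position of −62 bp (interquartile range −127 to −10). They were stronger than the other interior regions, with a median of 15 tags (12 to 21) against 11 (9 to 14), and a median fold enrichment of 7.09 against 6.27. Their median width was 153 bp against 99.0 bp. The local background at these summits was also higher, with a median of 1.25 tags against 0.846, and its part in the difference was not tested.

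For many host genes no start was listed at the outer 5′ end. The 432 members fell in 402 host genes with their own internal start nearby. In 144 of these (35.8%, 31.1 to 40.7%) the table also listed a start within 1 kb of the outer 5′ end, and in 258 it did not. Of the 258, 254 had a predicted transcript model among their RefSeq records, as did 366 of all 402. Whether a predicted model sets the outer end was not tested. Where both starts were listed, 43 of 144 outer starts (29.9%, 22.5 to 38.0%) had an Otp region within 1 kb as well. A region is called interior here by the annotated span of the gene, predicted models included.

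The highest interior region of all, by −log10 q, was of this kind. It lay in Rbm15, which encodes an RNA-binding protein of the complex that methylates adenosines in RNA (chromosome 3, positions 107333056 to 107333389). It had 72 tags (56.3 to 90.7), a fold enrichment of 18.9 and its summit at 125 bp of an internal start. Tob1, an antiproliferative factor, had 46 tags at −259 bp, and Fam214b had 45 tags at −127 bp. Dcaf11, a substrate receptor of a ubiquitin ligase, had 43 tags at −130 bp. Tarbp2, a partner of Dicer, had 45 tags at −74 bp. Dcaf11 and Tarbp2 lie outside the 20 highest members and were chosen after their values were seen. Scaled by background, the 72 tags of Rbm15 corresponded to 12.3 IgG tags and the 54 of Hnrnpl to 9.21, above the 4 that the lowest measured IgG region had.

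Internal starts with more CpG dinucleotides had an Otp region at higher shares. Of 2929 internal starts of protein-coding genes, 519 (17.7%, 16.4 to 19.2%) had an Otp region within 1 kb. Of 16708 starts at a gene end, 5124 did (30.7%, 30.0 to 31.4%). With 15 or more CpG dinucleotides in the window, 37.8% (34.7 to 40.9%) of internal starts had one, against 49.5% (48.4 to 50.6%) of starts at gene ends. With 5 to 14 the shares were 13.0% and 22.0%, and with fewer than 5 they were 2.21% (1.37 to 3.35%) and 1.56% (1.21 to 1.97%). Starts of the same gene can share a window in part, so these intervals are too narrow. The 485 internal windows with a member within 1 kb had a median GC content of 61.7% and 21 CpG, against 53.3% and 6 CpG in the 2410 internal windows without an Otp region.

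**Figure D3:**
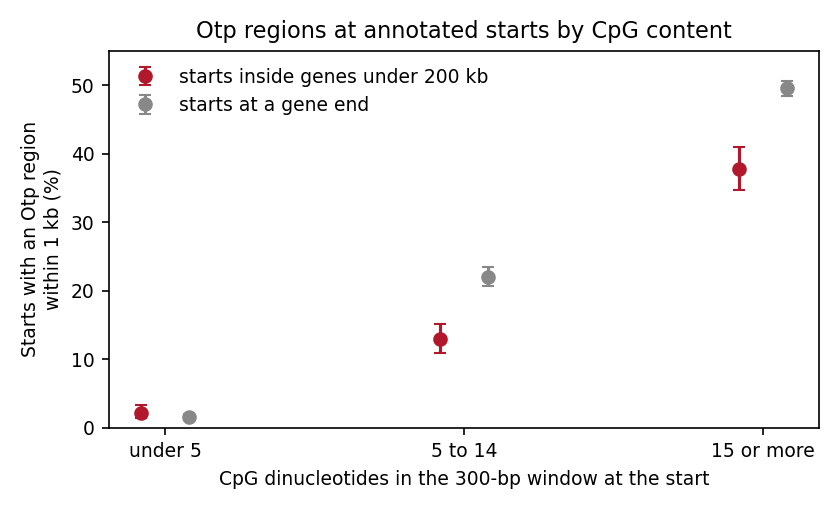
Share of annotated starts with an Otp region within 1 kb (vertical axis, with 95% exact binomial intervals) by the number of CpG dinucleotides in the 300-bp window (horizontal axis). Both kinds of start showed higher shares with more CpG, and starts inside genes under 200 kb lay below starts at gene ends in the 2 upper classes.

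Short motifs were then counted in the same windows. GGGCGG, which SP and KLF factors bind, was in 65.6% (61.2 to 69.8%) of the 485 internal windows with a member and in 31.8% (29.9 to 33.7%) of those without a region. It was in 47.0% of all 20085 listed starts of protein-coding genes and in 36.0% of all 31396 listed starts. Among windows with 15 or more CpG the 2 shares were close, at 78.8% (74.1 to 83.0%) and 75.4% (71.8 to 78.8%). For CCAAT the shares stayed apart. It was in 44.5% (40.1 to 49.1%) of windows with a member against 32.5% (30.6 to 34.4%) of those without, and in 37.3% of all listed starts. Among windows with 15 or more CpG it was in 39.2% (34.1 to 44.6%) against 22.3%, with an upper bound of 25.8%. Median GC content in these CpG-rich windows was 64.8% and 66.3%.

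The homeodomain letters had shares that were lower or had intervals that meet. TAATTA was in 17 of 485 windows with a member (3.51%, 2.05 to 5.55%), in 4.61% (3.80 to 5.52%) of those without a region and in 5.27% of all listed starts. Its core TAAT, which TAATTA contains, was in 39.6% against 55.9%, and in 57.9% of all listed starts. In CpG-rich windows TAAT was in 31.4% (26.5 to 36.6%) against 25.1% (21.7 to 28.7%), with intervals that meet. TAATTA was there in 8 of 344 (2.33%, 1.01 to 4.53%) against 8 of 606 (1.32%, 0.572 to 2.58%), and these intervals also meet. Distances to the summit could be measured in 281 windows that hold 50 bp on both sides of it. CCAAT lay within 50 bp of the summit in 97 of these (34.5%, 29.0 to 40.4%), GGGCGG in 133 (47.3%) and TAAT in 48 (17.1%). TAATTA did so in 0 of 281, which allows a share of up to 1.30%. ETS, E-box, YY1, NRF1 and cAMP response letters lay within 50 bp in 23, 9, 3, 4 and 4 of the 281. Distances were not counted in windows without a region, so the shares within 50 bp have no background beside them. These are matches of letters and not sites. No genome sequence was used for members away from a listed start, so their motifs were not analysed here.

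The other interior regions were spread along their genes. For members in a single host gene of known strand, the position was measured from the outer ends of the gene. Near an internal start, 373 of 428 (87.1%, 83.6 to 90.2%) lay closer to the outer 5′ end than to the 3′ end. Of the 914 others, 452 (49.5%, 46.2 to 52.7%) did. Per Mb of all interior in a bin, the stretches at internal starts included, they numbered 4.66 (3.54 to 6.03) from 1 to 2 kb of the outer 5′ end. In the bins farther in they numbered between 1.75 and 2.52. From the 3′ end it ranged from 1.82 to 2.51. Away from internal starts the density over all interiors, 2.37 per Mb, was close to the 2.24 per Mb (2.09 to 2.40) in genes of 200 kb or more. Outside protein-coding genes it was 1.70 per Mb (1.63 to 1.77).

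**Figure D4:**
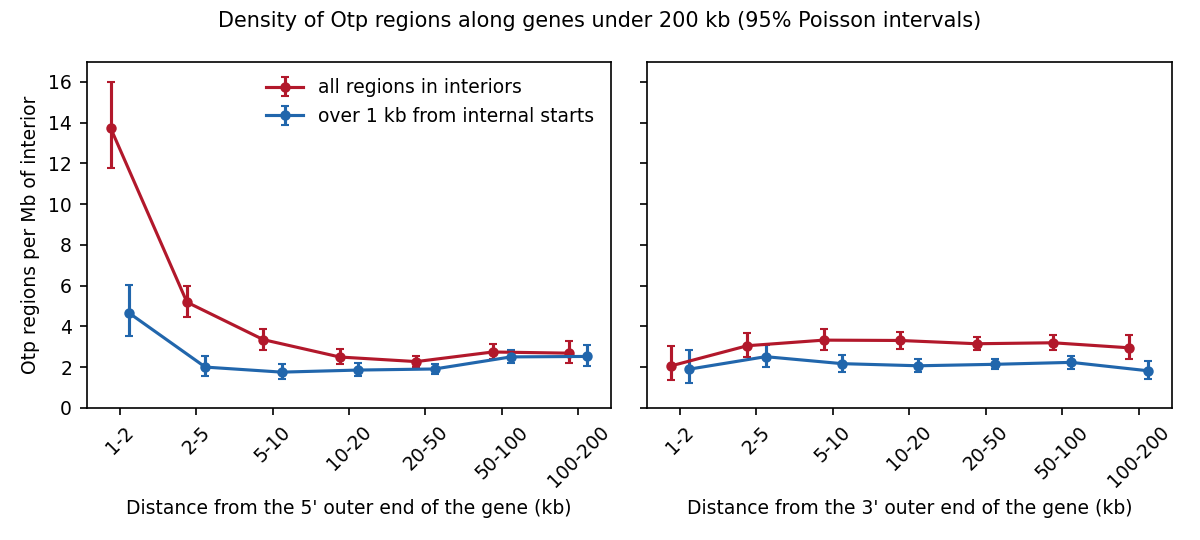
Otp regions per Mb of interior (vertical axis, with 95% Poisson intervals) by distance from the outer 5′ end (left) and the outer 3′ end (right) of genes under 200 kb. All interior regions (red) reached 13.7 per Mb at 1 to 2 kb from the 5′ end, against 4.66 for those over 1 kb from internal starts (blue).

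Strong regions also lay over 1 kb from any internal start in the table, which has no entry for Mamdc2, Hexim2, Pcmtd1 and Fdft1. Mamdc2 had 45 tags (32.8 to 60.2) with a fold enrichment of 28.0, the highest of all members (chromosome 19, positions 23357430 to 23357517). Hexim2, an inhibitor of the elongation kinase P-TEFb, had 62 tags and a fold enrichment of 18.0. Greb1, an oestrogen-responsive gene, had 40 tags with 27.1, at 53515 bp from its nearest gene end. Kat6b, a histone acetyltransferase, had 68 tags with 14.6 within 1 kb of a listed start at a gene end. Mphosph8, a reader of silenced chromatin, had 46 tags with 22.3. Phf19, an accessory protein of the Polycomb repressive complex, had 57 tags with 16.3. Pcmtd1 had 47 tags. These summits lay from 1438 to 53515 bp from the nearest end of a gene.

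Other members among the 20 highest had 36 to 56 tags. Elovl6, which elongates fatty acids, had 46 tags with a fold enrichment of 17.7, and Fdft1, the squalene synthase of the sterol pathway, had 47 tags with 17.2. Sos2, an activator of Ras, had 36 tags with 19.8. Uggt2, a glucosyltransferase of the endoplasmic reticulum, had 44 tags. Clec11a had 51 tags and Crlf2, a cytokine receptor, had 56.

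Some of the tallest regions were narrow. The region in Mamdc2 covered 88 bp, that in Greb1 100 bp and that in Mphosph8 79 bp, against 334 bp in Rbm15. Among members with 25 or more tags, 10 of 62 away from internal starts (16.1%, 8.02 to 27.7%) were at most 100 bp wide, against 1 of 68 near a start (1.47%, 0.0372 to 7.92%). The median width was 257 bp and 283.5 bp. With 15 to 24 tags the shares were 28.4% (22.4 to 35.1%) and 11.7% (7.21 to 17.7%), and with 6 to 9 tags they were 64.3% and 71.0%.

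The members fell in 1467 of 19720 protein-coding genes under 200 kb, or 7.44%. Of these, 1253 genes held 1 member, 188 held 2, 21 held 3 and 5 held 4. Host genes were long, with a median of 55.9 kb against 16.1 kb for all such genes. The share with a member was 1.12% of genes under 10 kb and 28.8% of genes from 100 to 200 kb. Per Mb of interior the order was the reverse, with 5.21 members per Mb in genes under 10 kb and 2.82 from 100 to 200 kb. Only 14 members lay in overlapping protein-coding genes.

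The 5 genes with 4 members were Inpp5f, Tnrc6a, Dclk2, Diaph1 and Zfp608. Inpp5f, a phosphoinositide phosphatase, had 9, 20, 25 and 10 tags along the gene, and the middle pair of summits lay within 1 kb of each other. Tnrc6a, which acts in silencing by microRNAs, had 10, 18, 19 and 13 tags. Dclk2, a kinase of neuronal microtubules, had 9, 15, 9 and 10 tags. Diaph1, an actin nucleator, had 25, 23, 13 and 14, and Zfp608 had 14, 11, 15 and 11. Over all genes with several members, neighbouring summits were a median of 11613 bp apart, and 72 of 245 neighbouring pairs lay within 1 kb.

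Otp regions at the ends of the host genes were then counted. Within 1 kb of either end, 346 of 1467 host genes (23.6%, 21.4 to 25.8%) had one, against 5137 of 18253 other genes (28.1%, 27.5 to 28.8%). Over all 19720 genes the share was 27.8%. Among host genes with a member at an internal start it was 17.5% (14.0 to 21.5%), and among other host genes 25.9% (23.3 to 28.7%). Only 1179 of the 1467 host genes had a listed start. Hosts without one could not have a member near a start of their own, and they count among the other host genes. From 10 to 25 kb of length, these other hosts gave 22.9% (16.9 to 30.0%), against 33.5% (32.2 to 34.9%) of genes without a member. Under 10 kb they gave 21.2% (11.1 to 34.7%) against 18.8% (17.9 to 19.7%). From 25 to 50 kb they gave 21.5% (16.2 to 27.6%) against 35.6% (34.0 to 37.3%). From 50 to 100 kb they gave 28.5% (23.4 to 34.0%) against 35.8% (33.7 to 37.9%), and these intervals meet. From 100 to 200 kb they gave 28.9% (24.1 to 34.2%) against 30.6% (27.7 to 33.6%), with intervals that meet.

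Of 17 neuropeptide genes of the PVN 1 had a member (5.88%, 0.149 to 28.7%), near the background of 7.44% of genes. These short genes hold only 0.0640 Mb of interior, so the density of 15.6 per Mb rests on that 1 region (0.396 to 87.1). It was Vgf, a granin-like secretory protein, with 11 tags and a fold enrichment of 4.86. Of 14 genes under 200 kb listed as lineage transcription factors, 2 had one (14.3%, 1.78 to 42.8%), at 2.36 per Mb (0.286 to 8.54). A place on the list does not show a role in the PVN lineage, and none is shown here for Bclaf1. Bclaf1 had 24 tags (15.4 to 35.7) with its summit at −108 bp of an internal start, and Arnt2 had 11 tags (5.49 to 19.7) at −1 bp.

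Genes of energy balance signalling had a member in 4 of 25 (16.0%, 4.54 to 36.1%), at 4.64 per Mb (1.26 to 11.9). These intervals include the 7.44% and 3.19 per Mb of all genes under 200 kb. Irs1, the docking protein of the insulin receptor, had 21 tags. Adcy3, an adenylyl cyclase of neuronal cilia, had 11 tags with 7.81. Socs3, which damps leptin signalling, had 10 tags, and the insulin receptor Insr had 9. These 4 scaled to between 1.53 and 3.58 IgG tags, below 4.

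The lists of transcription and chromatin regulators lay on both sides of the background. Of 43 histone-modifying and chromatin genes, 14 had a member (32.6%, 19.1 to 48.5%), and their density was 6.13 per Mb of interior (3.63 to 9.69), against 3.19 per Mb (3.04 to 3.35) over all genes under 200 kb. Kdm6b, a demethylase that removes a Polycomb mark, had members of 44, 14 and 13 tags, the first with a fold enrichment of 12.4. Chd2, a chromatin remodeller, had 33 tags, and Kdm2a, a CpG island-binding demethylase, had 28. Dnmt1, the maintenance DNA methyltransferase, had 15 tags at −25 bp of an internal start. Of 27 BTB and KLF zinc finger genes, 6 had a member, at 8.67 per Mb (3.74 to 17.1). Sp2 had 38 tags at −272 bp of an internal start, Klf7 and Zbtb7a had 29 each, and Klf15 had 14 and 11. The nuclear receptor list had 2 of 23, among them Nr1d1 with 27 tags, at 1.92 per Mb.

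The clock list held a member in 7 of 21 genes (33.3%, 14.6 to 57.0%), at 11.6 per Mb (5.29 to 22.0). The repressor Nr1d1 had 27 tags (17.8 to 39.3) and a fold enrichment of 7.40. Per1 had 26 tags at −152 bp of an internal start, and the output factor Tef had 25 and 21 tags at −62 and −381 bp. Nfil3 had 17 and 11 tags at 310 and 69 bp. Cry2 had 20 tags, Cry1 had 15 and Arntl, the activator of the clock, had 11. Nr1d1, Per1 and the stronger member of Tef scaled to 4.60, 4.43 and 4.26 IgG tags, and the others to fewer than 4. The local background at these 3 summits was 2.78, 4.09 and 2.75 tags in the Otp library, which the scaling leaves out.

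Of 29 activity-induced and CREB pathway genes, 6 had a member, at 11.2 per Mb (4.10 to 24.3). Fosb had 19 tags, Npas4 16, Jund 14, Crtc3 9 and Crem 8, beside Per1, which is in both lists. The interiors of these short genes lie near their ends. The summits in Fosb, Npas4 and Jund were 1486, 1119 and 1081 bp from an end of the gene.

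The synaptic, channel, axon guidance and kinase lists had density intervals that include the 3.19 per Mb of all genes. Of 24 synaptic genes 5 had a member (20.8%, 7.13 to 42.2%), at 4.50 per Mb (1.65 to 9.79), led by the scaffold Dlg4 with 36 and 14 tags. The GABA-synthesising enzymes Gad2 and Gad1 had 12 and 11 tags, and Cplx2 had 12. The vesicular glutamate transporter gene Slc17a6 also had a member, whose tags could not be worked out. Its fold enrichment was 5.74, against 7.89 for Gad2 and 6.22 for Gad1. Of 24 channel genes 3 had one (12.5%, 2.66 to 32.4%), among them Cacna1h with 18 tags and Scn2a, at 1.77 per Mb (0.365 to 5.17). Of 26 axon guidance genes 7 did (26.9%, 11.6 to 47.8%), at 3.92 per Mb (1.69 to 7.71), with 8 to 13 tags each. Of 31 kinase genes of the MAPK, PI3K and TOR pathways 6 did (19.4%, 7.45 to 37.5%), at 4.26 per Mb (1.71 to 8.77). Pik3r1 and Pik3cd, subunits of PI3 kinase, had 14 and 10 tags at 78 and −87 bp of an internal start.

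Markers of other cells had a member in 2 of 10 astrocyte genes, 1 of 11 oligodendrocyte genes, 1 of 10 microglia genes and 1 of 10 vascular or ependymal genes. The intervals of these shares, such as 2.52 to 55.6% for the astrocyte genes, all include the 7.44% of all genes under 200 kb. Slc1a2, the astrocyte glutamate transporter, had 17 and 7 tags and Aldh1l1 had 9. Mbp, a myelin protein, had 13 and 10 tags, and Flt1 had 8. None of 16 genes of non-neural organs had one, which allows a share of up to 20.6%. Of 13 housekeeping genes, Actb alone did, with 25 tags. A peak list does not measure expression, so these counts do not show which cells gave the nuclei.

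Over all 18 lists, 67 of 370 genes had a member (18.1%, 14.3 to 22.4%), and their density was 4.82 per Mb (3.83 to 5.99). The lists hold longer genes than the genome, with a median of 31.0 kb. In 6 lists the interval of the share lay above 7.44%, namely the chromatin, zinc finger, activity-induced, clock, axon guidance and kinase lists. In the first 4 of these the interval of the density also lay above 3.19 per Mb. That value covers all lengths under 200 kb. The activity-induced genes had a median length of 7.42 kb. All genes under 10 kb had 5.21 members per Mb, inside the interval of that list (4.10 to 24.3). Median lengths were 71.2, 29.4 and 30.4 kb in the chromatin, zinc finger and clock lists. Genes of 25 to 50 kb and of 50 to 100 kb had 3.02 and 2.94 members per Mb. Regions within 1 kb of each other in the same gene count separately in the density. This was so in Klf13 of the zinc finger list and in Tef and Nfil3 of the clock list. The intervals of the density are thus too narrow, and no density with such regions joined was computed. The lists were chosen with earlier results known, and nothing was tested on them.

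**Figure D5:**
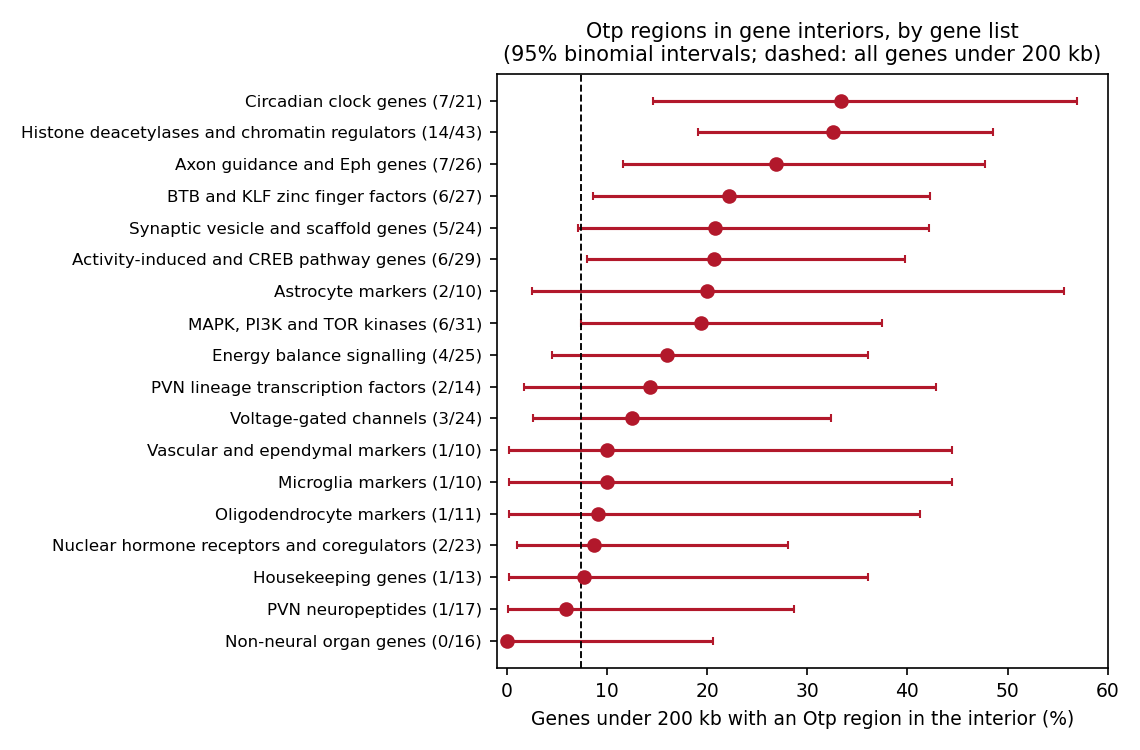
Share of genes under 200 kb with an Otp region in the interior (horizontal axis, with 95% exact binomial intervals) for 18 gene lists, with counts beside each name. The dashed line is the 7.44% of all protein-coding genes under 200 kb, and the clock and chromatin lists have the highest shares, at 33.3% and 32.6%.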

How the data were processed

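Each library has 1 deposited peak list in the narrowPeak layout, called per sample. The tools named in the submitters' processing notes are MACS2, SAMtools, Picard, Bowtie2 and Trimmomatic, with mm10. The sources used here give no version, setting or control for the calling. The deposited fold enrichment is a ratio over the caller's background, and each deposited −log10 p or −log10 q comes from the authors' peak caller. The deposited display score was not used.

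Summits were taken 1-based. Gene spans and start windows came from RefSeq tables of GRCm38.p6. Overlap with IgG meant at least 1 bp. A tag number was the whole number k for which (k + 1)/(background + 1) gave the fold and the Poisson tail above k gave the −log10 p within 0.001, the next missing by over 0.005. The solving was checked on values simulated with the same formula, which does not check that the authors' caller used it. The genome background was the lowest value shared by at least 3 regions. Binomial intervals are exact, intervals are at 95% and cover counting error only, since PCR copies are not independent molecules. Base pairs were counted from the first annotated gene of each chromosome to the last gene end. Members, lists and measures were chosen with earlier results of these data known. Genes named are the 20 members with the highest −log10 q, up to 4 per list, hosts with 4 members and those at the bounds; others were chosen after their values were seen. Some genes that this rule names are not reported here. The internal-start analysis and the scaling at shared regions were added after seeing the data. Python 3.11.15, numpy 2.4.6, pandas 2.3.3, scipy 1.17.1 and matplotlib 3.10.9 were used.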

Additional observations from a re-analysis of the deposited data

How the results depend on the processing

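Each choice was changed on its own. With −log10 q no lower than 10 there were 402 members in 394 host genes, 10.5% of autosomal regions and 0.757 per Mb of interior, with a median fold enrichment of 9.34, a median of 21 tags and 18 list genes with a member. With −log10 q no lower than 5 the share was 13.8% and the density 2.17 per Mb. With a distance over 500 bp from gene ends they were 18.2% and 3.62 per Mb, and with one over 5 kb there were 1007 members, 9.08% and 2.62 per Mb. The share of host genes with an Otp region at an end was 20.7% within 500 bp and 57.1% within 5 kb. The share of members at an internal start was 22.1% within 250 bp, and 32.2% and 43.9% with −log10 q no lower than 5 and 10. The share of members that scale to at least 4 IgG tags was 36.3% by the ratio at shared regions. Counts of members stayed within 1.5 times with protein-coding ends alone, host genes under 100 kb and no IgG region within 1 kb. Of 18 list counts, 12 stayed within 1.5 times for the lower of these bounds and 4 for the higher. The search for motifs at all summits needs a genome sequence and was skipped. No paired analysis was possible because there was a single library per antibody, and leaving one out gives no value.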

Other observations

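The density of interior regions was set out by chromosome. It ranged from 2.52 members per Mb on chromosome 16 and 2.64 on chromosome 17 to 3.78 on chromosome 13 and 4.26 on chromosome 7. Chromosome 7 held 152 members in 35.7 Mb of interior, and chromosome 16 held 49 in 19.5 Mb. No cause was tested.

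TAATTA was found in 10 of the 329 windows that hold a summit, those of Angel2, Pdss1, Chn1, Borcs5, Gmps, Spag9, Fuz, Pogz, Btbd3 and Rcan1. These members had 10 to 25 tags, and the letters began at bases 5 to 107 of the window while the summits lay at bases 142 to 270.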
